A study of Mus musculus with 21 samples.

Results

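The genes described are 9 that act on stored fat and on its oxidation, namely Pnpla2, Plin5, G0s2, Hilpda, Angptl4, Fabp7, Ppara, Cpt1a and Acadl. They were chosen by symbol and are 9 of the 48474 rows of a count table of mRNA from the neocortex of 21 mice. The rNLS8 mice (10, labelled TG) carry a human TDP-43 without its nuclear localization signal (TDP-43ΔNLS), switched on from a tetracycline-responsive promoter by a transactivator that the neurofilament heavy chain promoter drives, so that the transgene is made almost only in neurons. Their monogenic littermates (11, labelled WT) carry only one of its transgenes and are called wild-type here. Every mouse, of either genotype, had been given, at an age of 17 to 19 weeks, a single dose of 350 µg of a control antisense oligonucleotide without a target, in 10 µL, into the cerebral ventricles. Doxycycline in the chow (200 mg/kg) kept the transgene off for 2 more weeks, and the mice were killed 3 weeks after its withdrawal. The work was done in 2 batches, which are independent cohorts of mice: batch A had 4 wild-type and 3 rNLS8 mice, batch B had 7 of each. The control oligonucleotide is shown because no mouse without it is in the comparison, so its own effect cannot be told apart from the shared state of both genotypes.
control antisense oligonucleotide: cctataggactatccaggaa

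Cells keep surplus fatty acids as triglycerides in lipid droplets, whose surface carries perilipins and other coat proteins. Adipose triglyceride lipase, the product of Pnpla2, takes the first fatty acid off a triglyceride, and small inhibitor proteins hold it back. Freed fatty acids are carried by binding proteins, pass into mitochondria through the carnitine shuttle and are oxidized there, and the nuclear receptor PPAR-alpha, which fatty acids activate, drives many of these genes. In brain, astrocytes are the main site of fatty acid oxidation.

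Of the 9 genes, 3 were higher in rNLS8 mice, all acting at the lipase (Pnpla2 and its inhibitors G0s2, whose call DESeq2 did not make, and Hilpda), and 2 were lower (the fatty acid binding protein gene Fabp7 and the oxidation enzyme gene Acadl). The call of Acadl was lost when libraries were scaled by their size only. The other 4 genes (Plin5, Angptl4, Ppara and Cpt1a) did not pass the test. These 5 calls are read against a background in which 42.7% of the 19537 genes tested passed, 21.9% higher and 20.8% lower, so that their number is near what the whole table gives. The threshold was an adjusted p of 0.05 in edgeR's quasi-likelihood test with batch as a covariate. The median log2 fold change, rNLS8 against wild-type, was −0.07 over the 9 genes and −0.002 over all genes tested, and the median of its absolute value was 0.27 against 0.18. Among all calls 51.3% were higher, and this share was 68.0% when libraries were scaled by their size only. In none of the 9 genes did the genotypes separate fully, as they did in 7.19% of all genes tested (3.61% with every rNLS8 mouse above, 3.58% below).

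Libraries held between 20700912 and 22263809 counts, with a median of 21076278 among wild-type and of 21451125 among rNLS8 mice, and no library pair was identical. Tardbp, the mouse counterpart of the transgene, whose row may hold reads of the human sequence, averaged 2575 ± 206 normalized counts (SD) over the 11 wild-type mice and 4108 ± 955 over the 10 that carried the transgene. For 9 of the latter it was above the highest wild-type mouse (2828), and in T61340 of batch A it was within the wild-type range, at 2360. Its log2 fold change was 0.79 in batch B alone (adjusted p = 1.42e-10) and 0.26 in batch A alone (adjusted p = 0.191, edgeR), and the difference between batches had an unadjusted p of 6.44e-06 and an adjusted p of 0.126. An earlier analysis of these libraries had found T61340 and T60303, both rNLS8 mice of batch A, to stand apart, so results are also given without them. Markers of neocortical projection neurons such as Slc17a7 (3.19e+04 normalized counts in wild-type mice) and Tbr1 (2643) were well detected. Markers of striatal neurons, whose summed level ranged from 201 to 1032 CPM (counts scaled to a library of 1e+06) in wild-type and from 168 to 791 in rNLS8 mice, and of choroid plexus (20.2 to 2224 and 28.3 to 1133) varied widely between mice. In whole tissue, fewer cells of a type and less RNA per cell cannot be told apart.

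The lipase gene Pnpla2 (chr7:141455198-141460743, plus strand, GRCm38; this and the positions below span the whole gene in GENCODE vM21) rose by 20.8% in rNLS8 mice. Its normalized counts, which are counts scaled to the mean library, had a lowest value of 324, a median of 381 and a highest of 423 in the 11 wild-type mice, and of 372, 429 and 650 in the 10 rNLS8 mice. Of the rNLS8 mice, 7 were above the highest wild-type mouse, and the groups overlapped only in the other 3. The means were 381 ± 30.9 and 458 ± 78.9 (SD), and the log2 fold change was 0.27 (SE 0.061, adjusted p = 0.000835, edgeR). The highest levels were those of T61340 (650) and T60303 (531), and without both mice the log2 fold change was 0.19 (adjusted p = 0.00568, edgeR). It was 0.47 in batch A alone (SE 0.13, adjusted p = 0.0426, edgeR) and 0.18 in batch B alone (SE 0.060, adjusted p = 0.0240, edgeR). The difference between batches was 0.26 (SE 0.12), with an unadjusted p of 0.0434 and an adjusted p of 0.870 in edgeR's test of the interaction.

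G0s2, whose protein binds adipose triglyceride lipase and blocks it (chr1:193272161-193273217, minus strand), had normalized counts with a lowest value of 37.6, a median of 42.3 and a highest of 53.3 in wild-type mice. The same values were 34.3, 53.6 and 69.7 in rNLS8 mice. The groups overlapped: 5 rNLS8 mice were above every wild-type mouse, and T_70267 was below them all. Means of 44.9 ± 4.93 and 54.0 ± 9.52 gave a log2 fold change of 0.27 (SE 0.10, adjusted p = 0.0406, edgeR), a rise of 20.5%. This call stood close to the threshold and depended on the tool and on single mice. DESeq2 with batch did not make it (0.27, adjusted p = 0.0599), nor did DESeq2 without batch. It was lost, at adjusted p-values from 0.0511 to 0.0880 (edgeR), when any 1 of 12 mice was left out: the wild-type mice T_70264, T_69532, T_69527, T_70260, T_69523 and T61334 or the rNLS8 mice T_70252, T_70263, T_69531, T_70261, T_69524 and T61340. Without T61340 and T60303 it was 0.26 (adjusted p = 0.0847, edgeR), and within the batches it was 0.22 in A (adjusted p = 0.548) and 0.30 in B (adjusted p = 0.0836, edgeR). The gene was low, with 35 to 73 counts in a library.

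Hilpda encodes a small droplet protein that also inhibits this lipase and is known as a target of hypoxia (chr6:29272488-29275446, plus strand). Its lowest, median and highest normalized counts were 53.3, 78.4 and 107 in wild-type mice and 88.2, 101 and 131 in rNLS8 mice. All 10 rNLS8 mice were above the wild-type median, and 3 were above the highest wild-type mouse. The rise was 28.5%, from 79.6 ± 14.2 to 103 ± 12.2, with a log2 fold change of 0.36 (SE 0.096, adjusted p = 0.00359, edgeR). It passed with each of the 21 mice left out, at 0.32 to 0.41, and without T61340 and T60303, at 0.33 (adjusted p = 0.0155, edgeR). In batch A alone it was 0.53 (SE 0.20, adjusted p = 0.112, edgeR) and in batch B alone 0.29 (SE 0.11, adjusted p = 0.0488, edgeR). Counts of mRNA do not measure the activity of the enzyme.

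**Figure D1:**
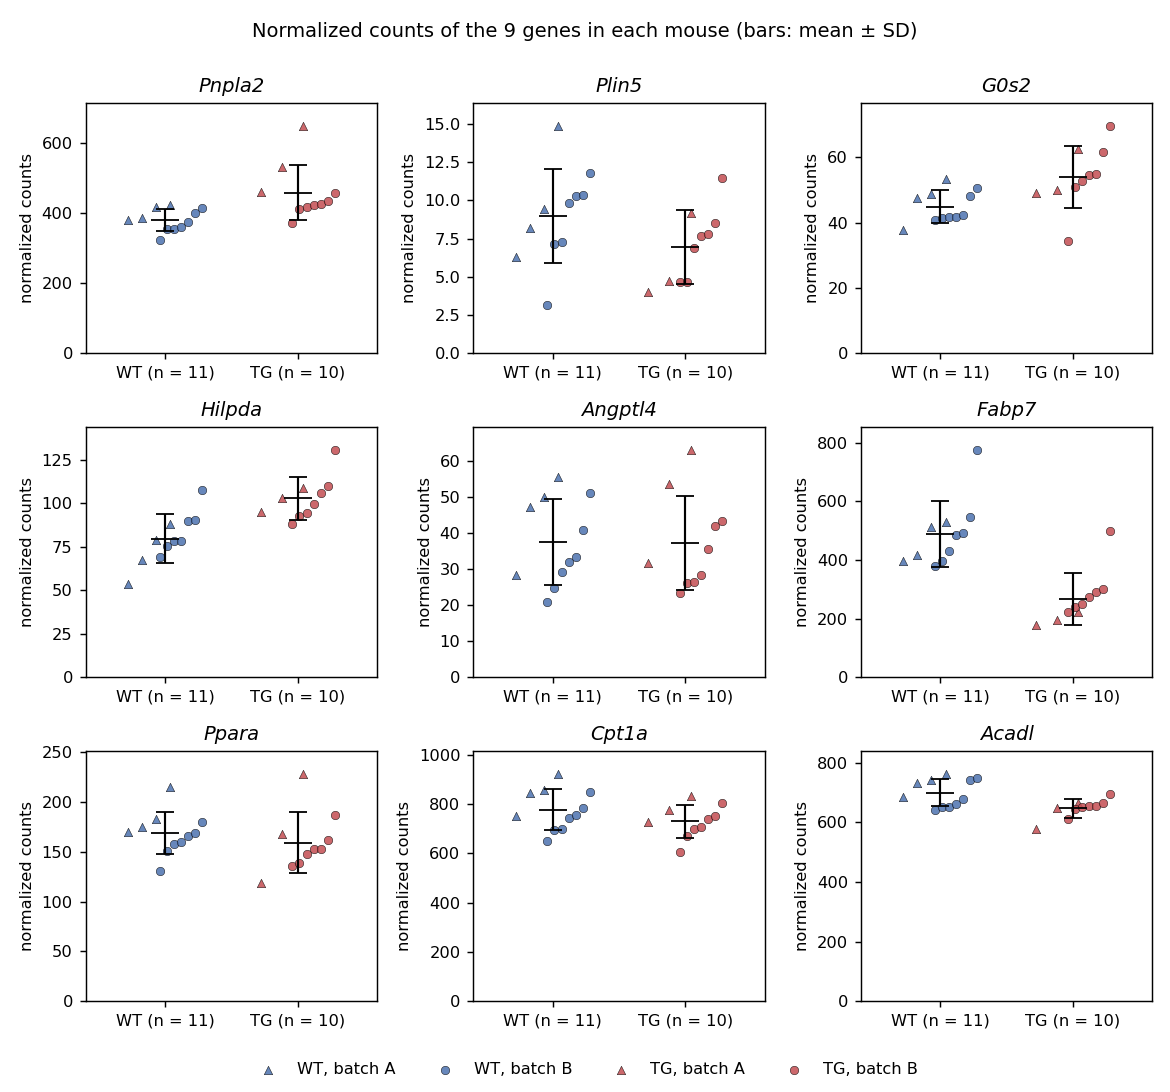
Normalized counts (vertical axes, from 0) of each of the 9 genes in every mouse, wild-type (WT, blue) beside rNLS8 (TG, red), with triangles for batch A, circles for batch B and black bars for the mean ± SD. Fabp7 shows 9 of 10 rNLS8 mice below every wild-type mouse, whereas for Angptl4 the groups overlap in all but 2 mice.

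The sequences upstream of the 3 genes that were higher, and of Fabp7, which fell most, are shown so that the elements known to bind PPARs and hypoxia-inducible factors can be looked for. They are the 250 bases before the RefSeq start site in GRCm38.p6, read 5′ to 3′ on the strand of the gene, and capitals mark matches. The letters searched, on both strands, were AGGTCA (the half-site of nuclear receptors), the PPAR element (2 half-sites in a row with any 1 base between them, so that each of its matches also counts as half-sites), and ACGTG and GCGTG (hypoxia response cores).
Pnpla2, chr7:141454938-141455187, plus strand: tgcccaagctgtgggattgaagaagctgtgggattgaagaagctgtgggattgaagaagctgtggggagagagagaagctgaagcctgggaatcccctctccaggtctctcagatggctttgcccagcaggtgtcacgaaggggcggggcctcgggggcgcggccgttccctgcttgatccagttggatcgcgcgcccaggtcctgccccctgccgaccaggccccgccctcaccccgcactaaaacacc
G0s2, chr1:193273189-193273438, minus strand: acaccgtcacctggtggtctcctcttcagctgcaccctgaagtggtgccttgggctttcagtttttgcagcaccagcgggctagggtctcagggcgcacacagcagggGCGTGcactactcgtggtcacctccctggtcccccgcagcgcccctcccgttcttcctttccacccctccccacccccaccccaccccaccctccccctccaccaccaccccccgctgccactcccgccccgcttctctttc
Hilpda, chr6:29272238-29272487, plus strand: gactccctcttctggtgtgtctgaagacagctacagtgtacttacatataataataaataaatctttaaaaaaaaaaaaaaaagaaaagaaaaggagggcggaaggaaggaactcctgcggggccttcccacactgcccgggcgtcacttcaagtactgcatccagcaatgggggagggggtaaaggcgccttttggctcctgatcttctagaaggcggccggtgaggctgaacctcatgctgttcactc
Fabp7, chr10:57784673-57784922, plus strand: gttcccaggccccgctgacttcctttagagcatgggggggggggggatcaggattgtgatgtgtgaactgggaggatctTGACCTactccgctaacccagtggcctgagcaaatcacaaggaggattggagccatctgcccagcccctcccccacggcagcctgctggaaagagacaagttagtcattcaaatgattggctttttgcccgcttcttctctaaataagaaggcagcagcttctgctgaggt

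The windows of Pnpla2 and Hilpda held none of these letters. That of G0s2 held GCGTG from 142 bases before the start, and that of Fabp7 held AGGTCA on the minus strand, printed as TGACCT, from 171 bases before it. Windows were at hand for 8 of the 9 genes, all but Angptl4. Hilpda and Plin5 had 2 windows each, of which only that nearest the RefSeq start was searched. Among the 8 genes, AGGTCA was also in the windows of Plin5 and Cpt1a, and GCGTG in those of Plin5 and Ppara, whereas the window of Acadl held none. AGGTCA was in 4607 of 32851 mouse windows of this length, the full repeat in 0.0335% of them, GCGTG in 28.2% and ACGTG in 16.6%. A match is no evidence of binding, and the search says nothing of elements elsewhere.

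Plin5, a perilipin that coats droplets and tethers them to mitochondria (chr17:56111601-56117596, minus strand), was hardly expressed, with 167 counts in all libraries together and 3 to 14 in each. Its normalized counts ran from 3.14 (median 9.40) to 14.9 in wild-type mice and from 4.03 (median 7.25) to 11.5 in rNLS8 mice. The ranges overlapped throughout, although 9 of 10 rNLS8 mice were below the wild-type median. The log2 fold change was −0.36 with a 95% confidence interval from −0.83 to 0.10 (adjusted p = 0.231, edgeR), and it was −0.18 (adjusted p = 0.605) without T61340 and T60303.

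Angptl4 encodes a secreted inhibitor of lipoprotein lipase and is a much used readout of PPAR activity (chr17:33773750-33781830, minus strand). Its normalized counts were 20.9 at lowest, 33.3 at the median and 55.4 at highest in wild-type mice, and 23.3, 33.5 and 63.1 in rNLS8 mice. The groups overlapped in all but 2 mice, the rNLS8 mouse T60303 at 63.1, above every wild-type mouse, and the wild-type mouse T_69523 at 20.9, below every rNLS8 mouse. The log2 fold change was 0.02 (95% confidence interval −0.31 to 0.34, adjusted p = 0.951, edgeR) and its sign turned in batch B alone (−0.05) and without T61340 and T60303 (−0.13). The table has 3 further rows for copies of Angptl4, with 793, 617 and 611 counts in all against 784 for Angptl4 itself, and their log2 fold changes were 0.04, 0.04 and 0.07. The rows are not separate measurements: the first copy had the same count as Angptl4 in 14 of 21 libraries, and the other 2 copies had the same count as each other in 18.

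Fabp7, the brain fatty acid binding protein of astrocytes and neural progenitors (chr10:57784881-57788450, plus strand), fell by 46.4% and changed most of the 9 genes. Its lowest, median and highest normalized counts were 378, 485 and 776 in wild-type mice and 177, 245 and 497 in rNLS8 mice. The only rNLS8 mouse within the wild-type range was T_69526 (497), and the other 9, of which the highest had 299, were below every wild-type mouse. From 487 ± 112 to 267 ± 89.9, the log2 fold change was −0.90 (SE 0.14, adjusted p = 1.10e-05, edgeR). The fall was present in batch A alone (−1.19, SE 0.15, adjusted p = 0.000783, edgeR) and in batch B alone (−0.76, SE 0.17, adjusted p = 0.00165, edgeR), and the interaction gave an unadjusted p of 0.123 (adjusted p = 0.883, edgeR). Without T61340 and T60303 it was −0.83 (adjusted p = 0.000147, edgeR), and with any 1 mouse left out it was between −1.03 and −0.82.

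Most astrocyte markers fell beside Fabp7. Of 10 such genes 7 fell, 2 did not pass and Gfap rose (1.03, adjusted p = 4.82e-08, edgeR), with a median log2 fold change of −0.21. Their summed level was 5532 to 6947 CPM (median 6179) in wild-type and 5012 to 6182 CPM (median 5344) in rNLS8 mice, and none was at 0. Slc1a2, the main glutamate transporter of astrocytes, fell (−0.32, adjusted p = 0.000270, edgeR), and Aldoc, an astrocyte aldolase, had a log2 fold change of 0.0029 (adjusted p = 0.970). The part of these markers in the change of Fabp7 was not tested.

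Ppara, which encodes PPAR-alpha (chr15:85734983-85802819, plus strand), had normalized counts of 169 ± 21.4 in wild-type (130 to 215, median 169) and 159 ± 30.7 in rNLS8 mice (119 to 229, median 153). The rNLS8 group reached beyond the wild-type range on both sides, with T60303 highest and T61340 lowest. The log2 fold change was −0.07, with a 95% confidence interval from −0.24 to 0.11 (adjusted p = 0.576, edgeR).

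Cpt1a encodes the carnitine palmitoyltransferase of the outer mitochondrial membrane, the controlled gate for long-chain fatty acids (chr19:3322334-3385733, plus strand). Levels ran from 652 (median 757) to 924 normalized counts in wild-type mice and from 604 (median 734) to 832 in rNLS8 mice, and all but 1 of the rNLS8 mice were within the wild-type range. With means of 778 ± 82.9 and 731 ± 66.4 its log2 fold change was −0.08 (95% confidence interval −0.18 to 0.03, adjusted p = 0.256, edgeR).

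Acadl encodes long-chain acyl-CoA dehydrogenase, which starts the oxidation cycle inside mitochondria (chr1:66830839-66863277, minus strand). It had 643 to 764 normalized counts (median 684) in wild-type and 578 to 695 (median 653) in rNLS8 mice. The ranges overlapped widely, though 9 of 10 rNLS8 mice were below the wild-type median and 2 below every wild-type mouse. It fell by 7.36%, from 700.3 ± 46.2 to 648 ± 31.9, with a log2 fold change of −0.11 (SE 0.043, adjusted p = 0.0415, edgeR). This call too was close to the threshold. It was lost, at adjusted p-values from 0.0538 to 0.102 (edgeR), without any 1 of the wild-type mice T_70260, T_69523, T61334, T61333 and T61331 or of the rNLS8 mice T_70261, T_69524, T60303 and T61342, and when T61340 and T60303 were both left out (−0.08, adjusted p = 0.140). Scaled by library size only it was −0.03 and the call was lost (adjusted p = 0.553, edgeR). Within the batches it was −0.19 in A (adjusted p = 0.285) and −0.07 in B (adjusted p = 0.272, edgeR). A further row for a copy of Acadl, with 1421 counts in all, had a log2 fold change of −0.02 (adjusted p = 0.950, edgeR).

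**Figure D2:**
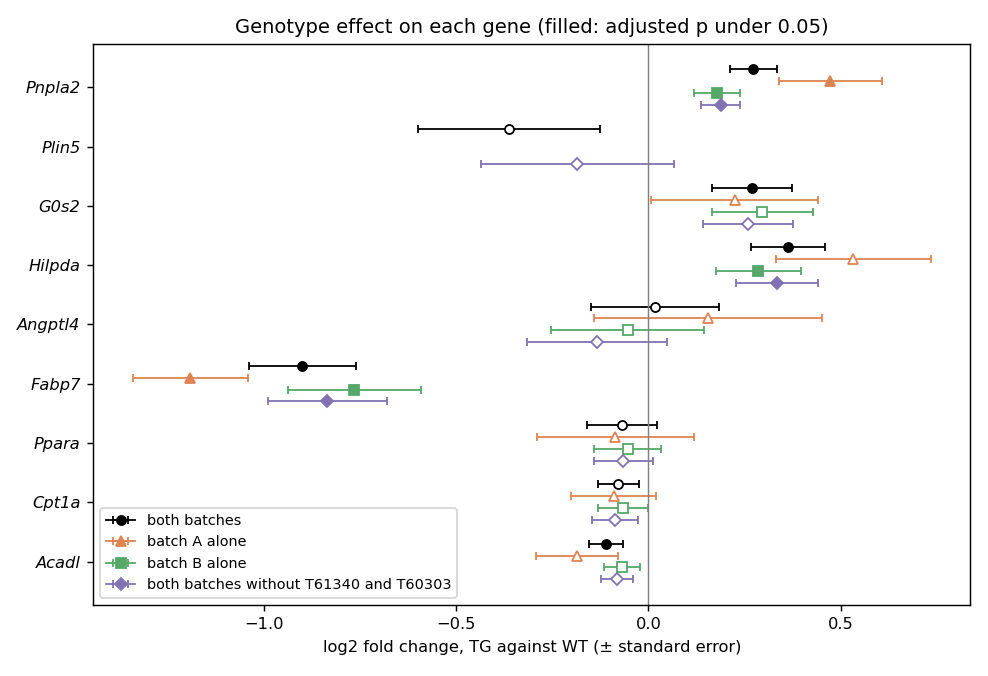
Log2 fold change of rNLS8 against wild-type mice (horizontal axis, bars ± standard error) for each gene over both batches, in each batch alone and without T61340 and T60303, filled where the adjusted p was under 0.05. Pnpla2 and Fabp7 are filled in all 4 fits, and Plin5 has no value within a batch because it was too low to be tested there.

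Within batch A alone 2 of the 9 genes passed (Pnpla2 and Fabp7; 11.8% of all genes tested there did) and within batch B alone 3 (these and Hilpda; 39.1%). The sign was the same in both batches for 7 genes, Plin5 was not tested within them and Angptl4 turned. How often the sign agreed over all genes was not counted, so this number says nothing particular of the 9 genes. The genotype effect itself differed between batches for 0 of the 9 genes and for 0 of 19537 overall (0%) in edgeR's interaction test, in which 1095 genes, Pnpla2 among them, had an unadjusted p under 0.05. DESeq2's interaction called 0 of the 9 and 1 gene in all. The standard errors of these differences, 0.088 for Acadl to 0.51 for Plin5, leave room for differences as large as the effects themselves, so the absence of calls does not show that the batches act alike.

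**Figure D3:**
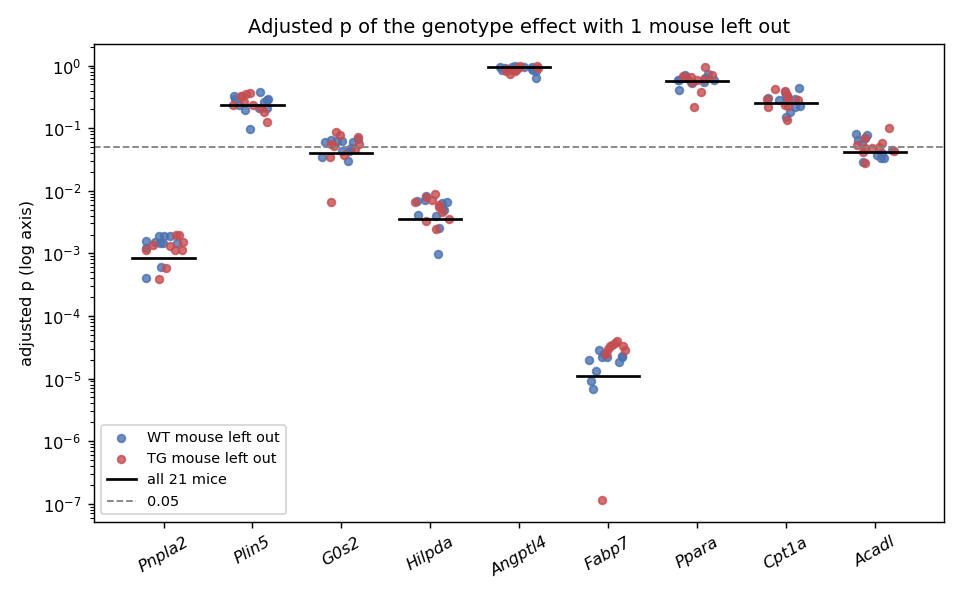
Adjusted p of the genotype effect (vertical log axis) for each gene with 1 wild-type (blue) or 1 rNLS8 (red) mouse left out, beside the value from all 21 mice (black bar) and the threshold of 0.05 (dashed). Points of Pnpla2, Hilpda and Fabp7 are all below the threshold, those of G0s2 and Acadl lie on both sides of it, and those of Plin5, Angptl4, Ppara and Cpt1a are all above it.

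On a scale that allows levels of different genes to be compared, CPM per kilobase of exon, Fabp7 (18.2) and Acadl (16.4) stood highest in wild-type mice. Next came Pnpla2 (5.91), Cpt1a (4.77), Hilpda (3.38), G0s2 (2.41) and Ppara (2.06), and Angptl4 (0.496) and Plin5 (0.201) were lowest. In rNLS8 mice Acadl (15.1) was above Fabp7 (10.0), and Pnpla2 was at 7.10, Hilpda at 4.36 and G0s2 at 2.90. The lipase was therefore above both of its inhibitors per length of RNA in either genotype. Among themselves, mice of 1 genotype and batch showed no firm covariation of the 9 genes. Over 36 pairs and 21 mice, after subtraction of the mean of each genotype and batch, Pearson's r of log2 CPM ran from −0.42 to 0.46 with a median of −0.02, and 0 pairs passed a permutation test adjusted over the pairs (0 at an unadjusted p under 0.05 for Pearson's r). The strongest was that of both lipase inhibitors, G0s2 and Hilpda, with r = 0.46 (permutation p = 0.0524, adjusted 0.907) and Spearman's rho = 0.44 (permutation p = 0.0440, adjusted 0.820). It was 0.45 without the 2 mice farthest from the median of G0s2, 0.87 among the 7 mice of batch A and 0.28 among the 14 of batch B.

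As a description over the same 21 centred values, the genes whose levels were most like those of Fabp7 were Spsb4 (r = 0.80) and Eomes (r = 0.78). Eomes, a gene of neuronal progenitors, had 14.3 normalized counts or fewer in 9 of the wild-type mice, and was highest in T_69532 (145) among these and in T_69526 (45.3) among rNLS8 mice, which are also the mice with the highest Fabp7; it was picked for its likeness to Fabp7, so this is no separate observation, and its part in the level of Fabp7 was not tested. Pnpla2 was followed by Copz1 (0.81) and Clpp (0.80), G0s2 by Zfp7 (0.83) and Atp5k (0.79), Hilpda by Gm30054 (0.83) and Noxred1 (0.77), and Angptl4 by Fdx1 (0.82) and Txnip (0.79). For Plin5 they were Wdr76 (0.75) and D830035M03Rik (0.73), for Ppara Bmpr1b (0.82) and Fzd4 (0.81), for Cpt1a Cspg4b (0.85) and Efcab1 (0.83), and for Acadl Tnfsf13os (0.80) and Primpol (0.78). None of the 9 genes was nearest to another of them. These r values are the highest of a search over 19537 genes, and the level that chance gives in such a search was not tested. Since the 9 genes are few among these candidates, their absence says nothing of whether they vary together. The points share their libraries and scaling.

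Of 150 other genes on 10 lists of the same and adjoining functions, 129 were tested, of which 21 rose and 25 fell. That is 35.7% of those tested, below the 42.7% of all genes, and their median log2 fold change was −0.02. Some genes are on several lists.

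Lipolysis had 3 genes higher, which are Pnpla2, G0s2 and Hilpda themselves, and 2 lower of 13 tested (median 0.03). The lower ones were Ddhd2, a triglyceride lipase of neurons (−0.29, SE 0.053, adjusted p = 0.000113), and Mgll, which cleaves the last fatty acid from glycerol (−0.15, adjusted p = 0.0457, edgeR), whose call is close to the threshold and whose log2 fold change was −0.03 in batch A alone and −0.20 in batch B alone. The most abundant that did not pass were Abhd6 (0.03), a monoacylglycerol lipase, and Faf2 (0.06). Of 19 genes of the droplet coat and droplet formation 6 rose and 3 fell (median 0.10). Plin4, a perilipin, rose from 55.2 ± 21.6 to 212 ± 91.1 normalized counts, and all 10 rNLS8 mice (106 at lowest) were above every wild-type mouse (105 at highest; log2 fold change 1.89, SE 0.22, adjusted p = 1.55e-07, edgeR). The rise of Plin4 was 2.91 in batch A alone (adjusted p = 0.000114) and 1.37 in batch B alone (adjusted p = 1.89e-05, edgeR), and the difference had an unadjusted p of 0.000232 and an adjusted p of 0.577. Lpin2, a phosphatidate phosphatase (0.28, adjusted p = 4.76e-06), and Bscl2, the seipin gene (0.22, adjusted p = 0.00107, edgeR), also rose. Cideb fell (−0.45, adjusted p = 0.00246, edgeR), and Dgat2, which makes triglyceride (−0.12), and Spg20 (0.10) did not pass.

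Mitochondrial oxidation had 3 genes higher and 3 lower of 22 tested, with a median of −0.004. Both subunits of the trifunctional protein, which carries out the later steps of the cycle after Acadl, rose: Hadha (0.20, adjusted p = 0.00192) and Hadhb (0.17, adjusted p = 0.000728, edgeR). The acyl-CoA synthetase genes Acsl1 (−0.19, adjusted p = 0.00148) and Acsl6 (−0.19, adjusted p = 0.000133, edgeR) fell. Cpt1c, the neuronal relative of Cpt1a (0.0015), and Echs1 (0.09, adjusted p = 0.0651, edgeR) did not pass. Peroxisomal oxidation had 2 higher and 7 lower of 17 (median −0.09). Abcd2, a peroxisomal importer of very long-chain acyl-CoA (−0.40, adjusted p = 5.14e-09, edgeR), was lower in all 10 rNLS8 mice than in any wild-type mouse. Amacr (−0.54, adjusted p = 3.10e-05) and Abcd3 (−0.17, adjusted p = 0.00149, edgeR) fell as well, and Hsd17b4 (−0.06) and Scp2 (−0.09, adjusted p = 0.0560; 0.0385 in DESeq2) did not pass in edgeR.

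**Figure D4:**
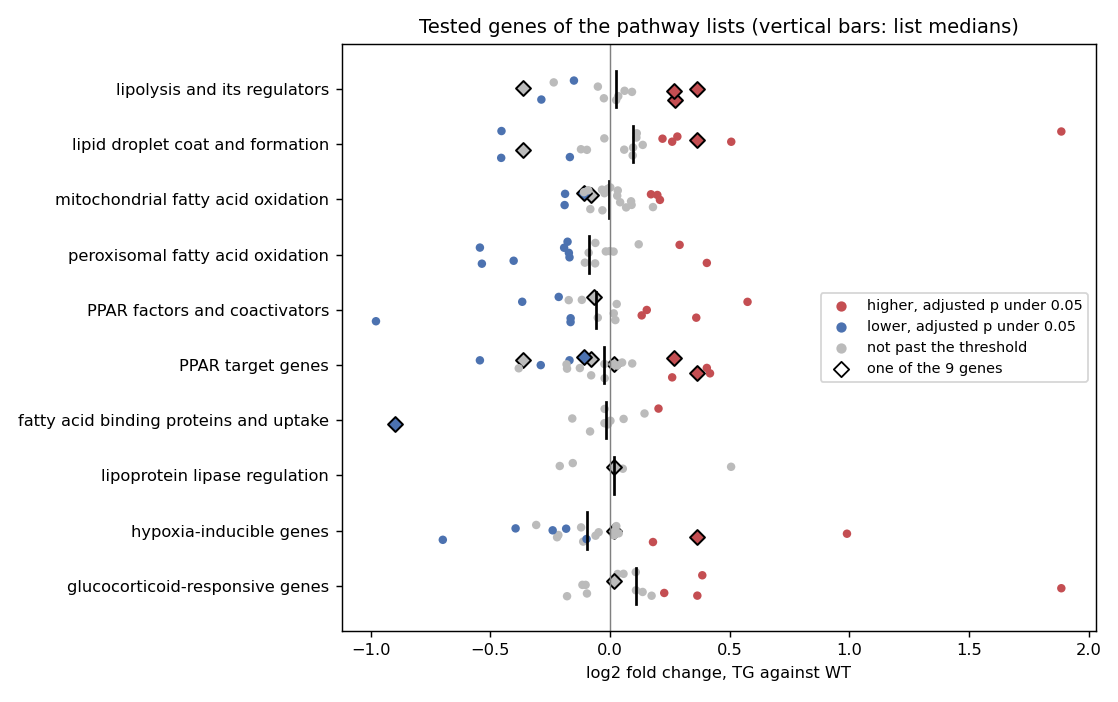
Log2 fold change of rNLS8 against wild-type mice (horizontal axis) for every tested gene of 10 pathway lists, with genes past an adjusted p of 0.05 in red (higher) or blue (lower), diamonds for the 9 genes and a vertical bar at each list's median. Medians lie between −0.10 and 0.11, Fabp7 is far to the left of its list, and Plin4 (1.89, on 2 lists) is far to the right.

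Among 16 PPAR factors and coactivators 4 rose and 5 fell (median −0.06). Ppara did not pass, whereas Ppard, which encodes the PPAR of broad expression, rose from 516 ± 60.4 to 761 ± 142 normalized counts (0.57, SE 0.055, adjusted p = 9.59e-09, edgeR), and only 1 of the 10 rNLS8 mice was within the wild-type range. Ppargc1b, a coactivator, rose (0.36, adjusted p = 0.00125), and Med1 (−0.21, adjusted p = 0.00104) and Rxra (−0.16, adjusted p = 0.00305, edgeR) fell. Ncoa1 (−0.12) and Ncoa2 (0.02) did not pass. Known PPAR target genes, Angptl4, Cpt1a, Plin5, Acadl, Hilpda and G0s2 included, had 5 higher and 4 lower of 23 (median −0.02). Besides Hilpda, Ucp2, an uncoupling protein (0.42, adjusted p = 0.00728), and Ehhadh, a peroxisomal enzyme (0.40, adjusted p = 0.00215, edgeR), rose. The lower ones were Acadl and 3 others, among them Acaa1b, a peroxisomal thiolase gene (−0.54, adjusted p = 0.0109, edgeR), which is mentioned after its values were seen and has a near-identical copy, Acaa1a, with which it may share reads. The abundant Vldlr (−0.08) and Tsc22d1 (−0.13, adjusted p = 0.0519, edgeR) did not pass. Fgf21, which encodes a secreted PPAR-alpha target and is mentioned here after its values were seen, was too low to be tested, with 6 counts over 11 wild-type libraries and 86 over 10 rNLS8 libraries (2 to 29 in each, median 7). The 29 counts were those of T_69526, and the part of PPAR-alpha in the counts of Fgf21 was not tested.

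Fatty acid binding and uptake genes had Slc27a4, a fatty acid transporter, higher (0.20, adjusted p = 0.00426) and Fabp7 lower, of 10 tested (median −0.02). Slc27a1 (0.0020) and Dbi, which encodes an acyl-CoA binding protein (−0.16, adjusted p = 0.143, edgeR), did not pass. The 5 tested genes of lipoprotein lipase regulation, Lpl (−0.16), Lmf1 (0.05) and Angptl4 among them, all missed the threshold, and the nearest to it was Lipg, an endothelial lipase (−0.21, adjusted p = 0.0844, edgeR). Hypoxia-inducible genes, of which Hilpda is one, had 3 higher and 5 lower of 19 (median −0.10). Beside Hilpda the higher ones were Car9, a carbonic anhydrase gene with 2 to 21 counts in a library (0.99, adjusted p = 0.00384, edgeR), and Slc2a1, the glucose transporter gene of the blood-brain barrier (0.18, adjusted p = 0.0266, edgeR), both named after their values were seen. Ldha (−0.70, adjusted p = 2.91e-11) and Egln1 (−0.39, adjusted p = 3.79e-09, edgeR) were lower in all 10 rNLS8 mice than in any wild-type mouse, and P4ha1 fell too (−0.24, adjusted p = 0.00109, edgeR). Bnip3 (−0.06) and Ndrg1 (−0.05) did not pass. Glucocorticoid-responsive genes, a list that holds Angptl4 and Plin4, had 4 higher of 15, and the other 11 did not pass (median 0.11): Plin4, Sult1a1 (0.39, adjusted p = 0.00814), Zbtb16 (0.37, adjusted p = 0.0218) and Tsc22d3 (0.23, adjusted p = 0.0207, edgeR). Of these only Plin4 passed in batch B alone. Without T61340 and T60303, Sult1a1 (0.23, adjusted p = 0.0724) and Tsc22d3 (0.17, adjusted p = 0.103, edgeR) were lost, the latter also without T60303 alone (adjusted p = 0.0534), and Zbtb16 was lost without T61342 (adjusted p = 0.0635, edgeR). Klf9 (−0.10) and the receptor gene Nr3c1 (−0.12) did not pass.

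Markers of other cell types are given beside these genes, and their part was not tested. Of 10 microglial markers 7 rose and 1 fell, with a summed level of 407 to 472 CPM in wild-type and 435 to 675 CPM in rNLS8 mice. Of 9 neuronal markers 5 fell and 1 rose (5472 to 6883 CPM and 4115 to 5464 CPM). Of 9 oligodendrocyte markers 1 fell and the other 8 did not pass. Fat cells, in which Pnpla2, G0s2, Plin5 and Angptl4 are abundant, were at or near the limit of detection by their markers: none of 6 was high enough to be tested, and their summed level was at most 0.308 CPM in any library, against a limit of 3 counts in a library of 0.135 to 0.145 CPM for 1 gene.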

How the data were processed

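Neocortical mRNA of 21 mice (11 wild-type, 10 rNLS8) was sequenced as paired 100-base reads per the labels. The authors deposited whole-number counts per gene, not normalized, for mm10 (GRCm38). The submitters' processing notes name HISAT, HISAT2, Bowtie, Bowtie2 and RSEM with no version, and the counter is not given in the sources used here. Of all counts, 4.11% are on 2553 rows for further copies of 1907 symbols, so reads of copied genes may be split or counted repeatedly.

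From these counts, genes were kept by edgeR's filterByExpr on genotype and batch (minimum count 10, minimum total 15), scaled by TMM and tested with edgeR 4.0.16 (R 4.3.3; glmQLFit and glmQLFTest, genotype plus batch, two-sided), with Benjamini-Hochberg adjustment over all 19537 genes tested and a threshold of 0.05. Dividing a count by its library's effective size and multiplying by the mean such size gave the normalized count. The standard error is the absolute log2 fold change divided by the root of F. The interaction of genotype and batch was tested in the same way, and each batch was refitted alone. Covariation used log2 CPM with a prior count of 2 and 100000 permutations within genotype and batch. The procedures were tested on simulated data, with sets of 50 genes changed by a fixed log2 fold change. At 0.3 edgeR's genotype test called 29 of 50 and at 0.5 it called 41. Its interaction test called 3 of 50 at 0.3 and 13 at 0.5, so it missed most differences of these sizes. Intervals and limits cover counting error or the spread between these mice only, since reads carried no molecular identifiers. Depth was even, 20700912 to 22263809 counts in a library.

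The 9 genes and all lists were chosen with earlier results of these data known. Named were all 9 genes, from each pathway list up to 4 genes with the smallest adjusted p past the threshold and up to 2 of the highest level not past it, from each marker list given here the 2 genes of highest level where they bear on a result, and for each of the 9 genes the 2 with the highest r. Mgll, Gfap and Lipg complete counts, and Fgf21, Acaa1b, Car9 and Slc2a1 were chosen after their values were seen. Other marker lists were not used here, and some genes that the rule names are not reported here. Alternatives were DESeq2 1.42.0 with and without batch and for the interaction, edgeR without batch, other scaling (library size, upper quartile, DESeq2 size factors), other filters, no copy rows, each batch alone, Xist level or total count as covariate, each mouse left out, and T61340 and T60303 left out. Sex is not given. A filter on genotype alone was added after the data were seen. Sequences and positions are from RefSeq (GRCm38.p6) and GENCODE vM21; all 9 symbols matched the annotation.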

Additional observations from a re-analysis of the deposited data

Results flagged for a closer look

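Single mice stood apart in 4 of 36 groups of values searched with Dixon's ratio of gap to range, where chance gives about 1.8. The group of all rNLS8 mice includes that of batch B, so T_69526 is counted for Fabp7 in both. The chance figure also assumes normal values without a batch shift, so the count is not read as an excess. Hilpda in rNLS8 mice was highest in T_70261, at 131 normalized counts with the next at 110 (ratio 0.486). Fabp7 in rNLS8 mice was highest in T_69526, at 497 with the next at 299 (ratio 0.619 over both batches and 0.719 within batch B). Fabp7 in wild-type mice of batch B was highest in T_69532, at 776 with the next at 547 (ratio 0.577). Without T_69526 the fall of Fabp7 had its smallest adjusted p of all fits with 1 mouse left out (1.15e-07, edgeR).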

How the results depend on the processing

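Of the 9 genes, Pnpla2 and Fabp7 kept their direction and passed in all 15 other settings (log2 fold changes of 0.18 to 0.47 and −1.19 to −0.76), Hilpda in 14 (not in batch A alone), and G0s2 and Acadl in 8 each, all with the direction kept. G0s2 was lost with DESeq2 with and without batch, without a filter, with total count as covariate, in either batch alone and without T61340 and T60303 (adjusted p over all 15 settings 0.00953 to 0.548), and Acadl with library size or upper-quartile scaling, without a filter, with total count as covariate, in either batch and without those mice (0.0267 to 0.553). The number of the 9 genes past the threshold, 5 in the report, was 3 without a filter, 3 with total count as covariate, 3 without T61340 and T60303, 2 in batch A alone and 3 in batch B alone, and 3 to 5 with 1 mouse left out. It was 3 without any one of the wild-type mice T_70260, T_69523 and T61334 and of the rNLS8 mice T_70261 and T_69524. Batch A alone, with 7 mice, called 8 of the other pathway genes (46 in the report) and 2195 of all genes. Among named pathway genes other than Mgll, Lipg, Acaa1b, Car9 and Slc2a1, which were run in other settings only within each batch, and beside losses within a batch and those given in the report, Abcd3 and Rxra were lost with library size only and Ucp2 and Tsc22d3 with total count as covariate. Of those that did not pass, Faf2, Spg20 and Echs1 passed with library size only, Scp2 in 2 of 15 other settings (DESeq2 with batch, total count as covariate) and Tsc22d1 in 7. With 1 mouse left out, Echs1, Scp2, Ncoa1, Tsc22d1, Klf9 and Nr3c1 passed in at least 1 fit.

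Values that did not pass turned sign in some settings, and the cause was not tested. With library size only these were Ppara (0.013), Cpt1a (0.00021), the Acadl copy (0.054), Hsd17b4 (0.016), Bnip3 (0.018) and Ndrg1 (0.032). Without batch, Angptl4 was −0.011 in DESeq2 and −0.010 in edgeR. Cpt1c was −0.00046 and −0.00048 in DESeq2 with and without batch, −0.00036 with its size factors and −0.00024 with total count as covariate, where Abhd6 was −0.0022. In batch A alone the Acadl copy was 0.081 and Ncoa2 −0.0060. In batch B alone Angptl4 was −0.054, its copies −0.031, −0.027 and −7.23e-05, Abhd6 −0.042, Cpt1c −0.029, Slc27a1 −0.043 and Ndrg1 0.015. Without T61340 and T60303 Angptl4 was −0.13, its copies −0.11, −0.11 and −0.090, the Acadl copy 0.0027, Cpt1c −0.031 and Slc27a1 −0.026, and the effect in batch B minus that in A was −0.13 for Plin5 (0.48 with all mice) and 0.47 for Angptl4 (−0.18 with all mice). With 1 mouse left out, the ranges were −0.059 to 0.10 for Angptl4, −0.030 to 0.13, −0.059 to 0.11 and −0.037 to 0.14 for its copies, −0.15 to 0.069 for the Acadl copy, −0.024 to 0.020 for Cpt1c, −0.021 to 0.030 for Slc27a1 and −0.042 to 0.090 for Ncoa2, and for the effect in B minus that in A −0.41 to 0.043 for Angptl4 and −0.14 to 0.33 for Ppara. No paired analysis was possible because the labels number mice, not replicates shared between genotypes. Plin5 had 3 to 14 counts in a library, and how far depth limits its result was not tested.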
